A study of Drosophila melanogaster with 9 samples.

Results

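The genes described here encode the subunits of the proteasome and their close copies in Drosophila melanogaster. They were chosen by name as every gene identifier whose FlyBase symbol begins with Prosalpha, Prosbeta, Rpn or Rpt followed by a digit, which gave 47 of the 15682 identifiers in the count tables. A further identifier with such a symbol, Prosalpha4T1, was not analysed here. Nor was Sem1, a subunit of the regulatory particle whose symbol falls outside the rule. Of the 47, 32 have no letter after the number and are called the standard subunits here. They are 14 of the core particle (7 alpha and 7 beta) and 18 of the regulatory particle (6 Rpt and 12 Rpn). The other 15 are variant copies, marked by a T or R after the number, of which 10 resemble core and 5 regulatory subunits.

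The proteasome is the main machine that degrades proteins tagged with ubiquitin. Its core particle is a barrel: rings of beta subunits, some of them proteases, lie inside rings of alpha subunits whose tails gate the entry. The regulatory particle caps the barrel. Its base holds the Rpt subunits, a ring of ATPases that unfolds the substrate, together with the Rpn subunits that receive ubiquitin chains, and its lid removes the chains through Rpn11. The standard subunits are needed in all cells, whereas many of the T and R copies in flies are known for expression in the testis.

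RNA was sequenced from dissected midguts of adult virgin females of w1118 background in 3 groups with 3 libraries each, every library made from a pool of 30 midguts. The control group carried wild-type transformer (tra), the splicing regulator that sets female identity; the mutant group was mutant for tra; and the rescue group was tra mutant with the female form of tra driven by esg, which is active in intestinal stem cells and their immediate daughters. All groups were given as 15 days old. They were raised at 18 °C, aged there for 3 days and moved to 29 °C for the following 10, the step that switches on the transgene in the rescue. The labels give no allele of tra, do not say whether mutant and control females carried the driver, and leave unsaid whether the replicates are separate crosses. The p-values thus rest on the spread among these libraries alone, and part of that spread may be technical.

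Gene counts per library were 84839470 to 108455374, and the unit of level is CPM, the count of a gene in every 1000000 gene counts after TMM scaling. At the shallowest depth a count of 0 allows up to 3 reads, or 0.0354 CPM, a limit for counting error only. Reads of tra numbered 821, 650 and 742 for control, 1, 2 and 1 for the mutant and 756, 472 and 294 for the rescue, matching the labels. Control replicate 3 stood apart from the others: on the first principal component of all genes, which carried 46.2% of the variance, it lay at -50.4 beside -23.5 and -24.5 for the other control libraries. Values without it are given beside the subunit results that moved most when it was left out. Enterocyte markers were abundant, with 5 of 5 detected in every library and a summed level of 21001 to 35827 CPM. Since whole midguts were used, fewer cells of a type and less RNA per cell cannot be told apart.

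The 32 standard subunit genes together made up between 0.268% and 0.401% of the gene counts. With the exception of Prosalpha1, described further on, all were expressed within a narrow band once length was taken into account. In control the median of the other 31 was 77.8 CPM per 1000 exon bases, and the range ran from 38.7 ± 4.91 (SD, n = 3) for Prosbeta6 to 124 ± 7.12 for Prosbeta5, a ratio of 3.20. By subgroup, the mean level per 1000 bases was 77.8 to 123 for the 6 alpha genes, 38.7 to 124 for the 7 beta genes, 69.9 to 98.7 for the 6 Rpt genes, 52.5 to 90.7 for the 4 non-ATPase base genes and 41.1 to 87.7 for the 8 lid genes.

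The top of this order per length was held by Prosbeta5, the chymotrypsin-like protease, by Prosalpha2, a subunit of the alpha ring, at 123 ± 8.45, and by Prosbeta2, the trypsin-like protease, at 116 ± 6.40. The bottom was held by Rpn2, a scaffold of the base, at 52.5 ± 5.37, by Rpn12, a lid subunit, at 41.1 ± 3.14, and by Prosbeta6, a beta subunit without protease activity. Of the 30 pairs of neighbours in this order, 29 overlapped in their library values. The exception was the step from Rpn2, whose lowest control library was at 48.4, to Rpn12, whose highest was at 43.0. Lengths came from a newer annotation than the one behind the counts, so the order per length carries that uncertainty beside the spread between libraries.

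**Figure D1:**
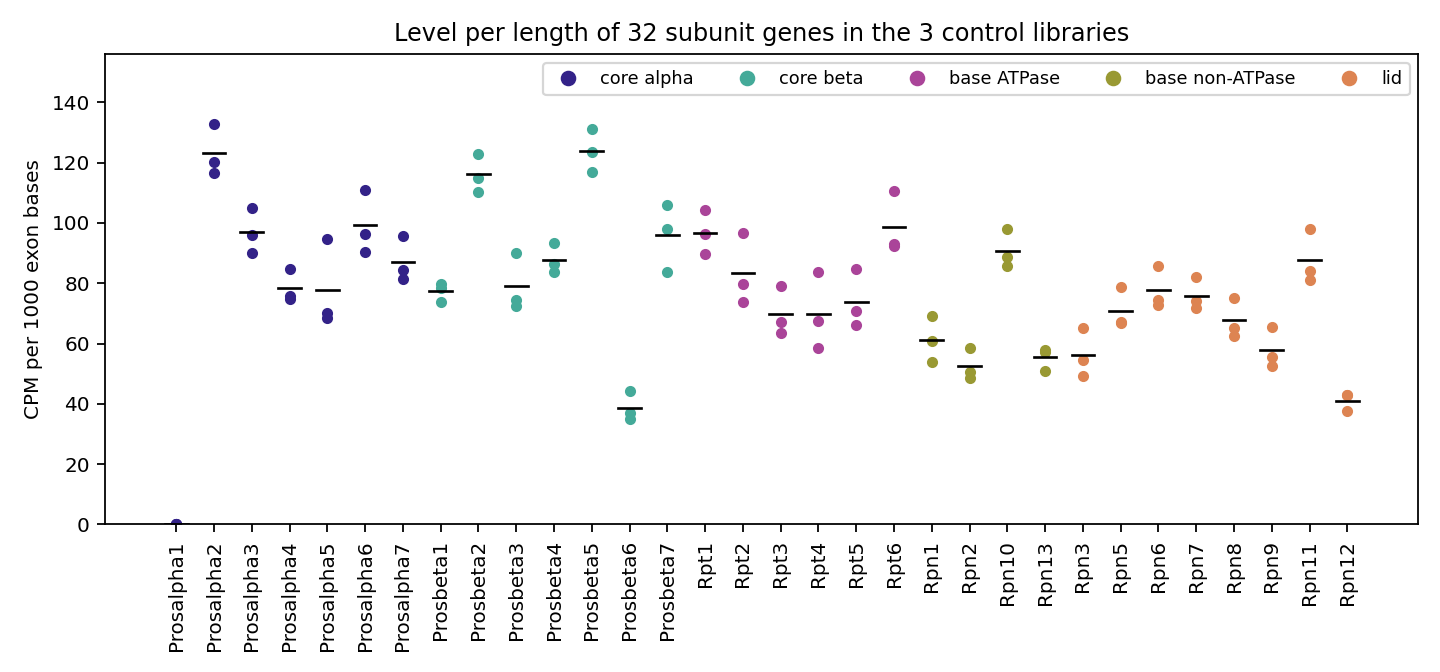
Level of each of the 32 standard subunit genes in control, in CPM per 1000 exon bases (points, the 3 control libraries; bars, their mean; colours, subgroups of the complex). All but Prosalpha1, at 0.158, lie between 38.7 and 124 on average.

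Across libraries, the subunit genes moved largely as a block. Control replicate 3 was the highest of the 9 libraries for 30 of the 31 genes (all but Rpn13), with a median of 0.23 above the gene's own mean of log2 CPM, and rescue replicate 3 was the lowest for 24 of the 31, with a median of -0.21. The other 7 libraries had medians between -0.09 and 0.06. Within groups, the median coefficient of variation of the 31 genes was 9.71% in control, 4.92% in the mutant and 8.79% in the rescue, beside 18.5%, 13.4% and 11.3% over all 10088 genes tested, many of which are expressed at lower levels.

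Markers of dividing and progenitor cells were high in the same control library. The summed level of 9 such markers was 25.5, 35.3 and 135 CPM for control, 22.8, 26.2 and 34.3 for the mutant and 22.1, 20.4 and 21.5 for the rescue, with none of the 9 at 0 in any library. In rescue replicate 3, where the subunit genes were lowest, that sum was within the range of the other rescue libraries. The part of these cells in the subunit levels was not tested.

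Markers of other cell types differed between groups as well. The summed level of 4 enteroendocrine markers was 277 to 321 CPM in control, 396 to 453 in the mutant and 408 to 505 in the rescue. For 4 markers of visceral muscle, the sheath around the gut, it was 1138 to 1451, 767 to 982 and 802 to 1148. For 6 markers of the fat body, an adjoining tissue, it was 14.4 to 96.2, 4.29 to 5.85 and 5.96 to 11.2, a difference carried mainly by the yolk protein genes Yp1, Yp2 and Yp3, at 44.9, 16.0 and 20.2 CPM in control replicate 1. Another fat body marker, apolpp, which encodes a lipid carrier, overlapped between the groups at 2.91 to 14.5, 3.59 to 4.47 and 4.88 to 6.29 CPM. With the yolk protein genes carrying the sum, less fat body and lower expression of these genes cannot be told apart by it. Against control, 5 of the 6 markers had a log2 fold change below 0 in the mutant and 5 in the rescue. The exception in both, Lsp2, was at 0.0213 to 0.240 CPM in control, 0.137 to 0.249 in the mutant and 0.240 to 1.98 in the rescue. None of these markers was at 0 in any library, and the sum for 4 markers of the ovary, with 0 to 2 of them at 0, was 2.74 to 5.75 over all libraries. Their part in the small differences described next was not tested.

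**Figure D2:**
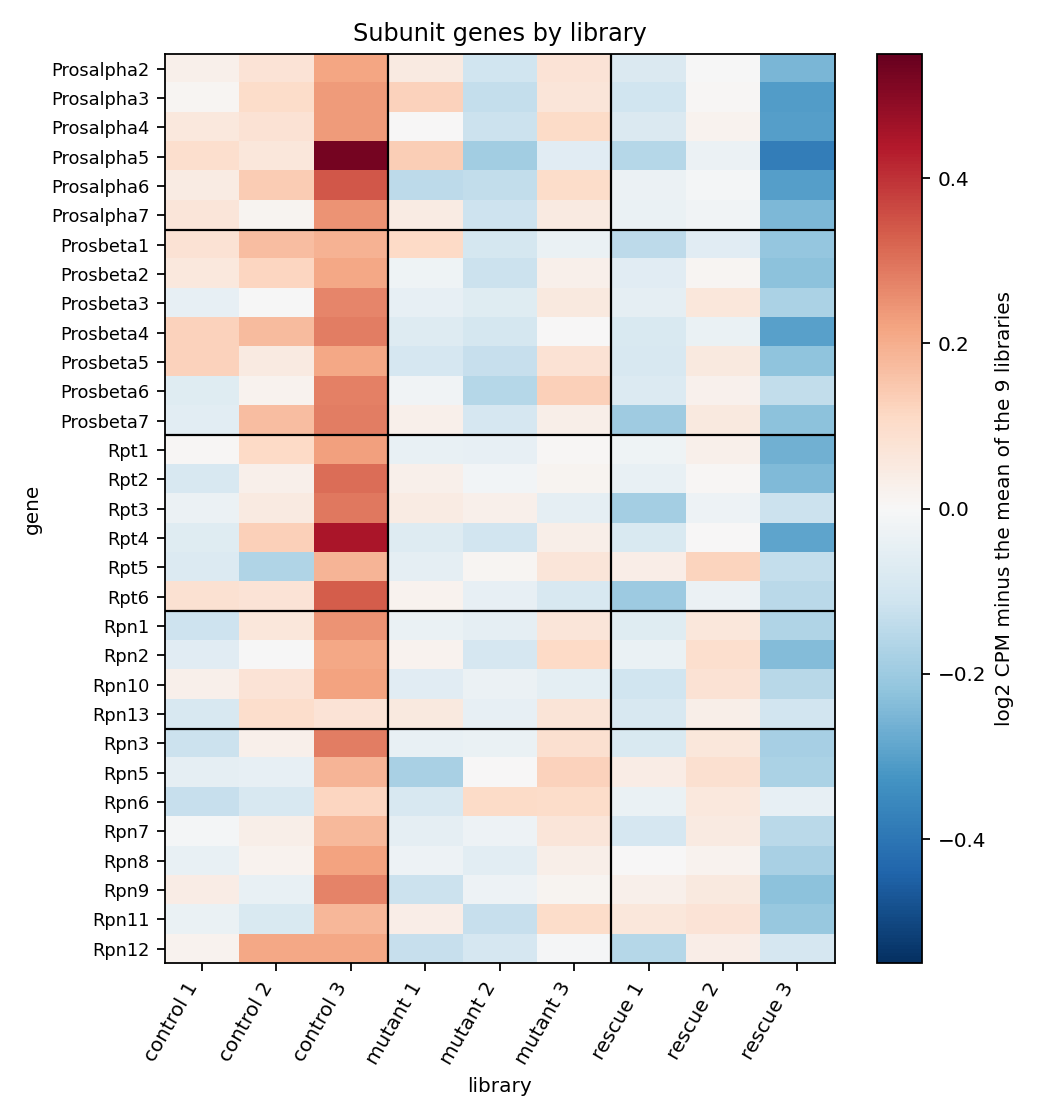
Log2 CPM of 31 standard subunit genes (rows, grouped as alpha, beta, Rpt, base Rpn and lid) in 9 libraries (columns), as the difference from the gene's mean over the 9. Control replicate 3 is the highest for 30 of 31 genes and rescue replicate 3 the lowest for 24.

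The first comparison asked how the subunit genes stood in females without tra against control females. None of the 35 members tested, 32 standard genes and 3 variant copies, passed the threshold in either direction (edgeR quasi-likelihood test, Benjamini-Hochberg adjusted p under 0.05 over 10088 genes), where 3.66% of all genes tested were called higher and 3.01% lower. The smallest adjusted p among the 32 was 0.182. The differences leaned one way by a small amount: 29 of the 31 genes had a log2 fold change below 0, with a median of -0.10, beside a median of -0.03 and 53.5% below 0 over all genes. The 95% intervals of the 31 genes lay between -0.63 and 0.33 on the log2 scale, so larger differences than these lay outside the interval of each gene.

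At an unadjusted p under 0.05, 2 of the 32 genes were lower and 0 higher, where 12.8% and 11.2% of all genes were. DESeq2 called none of the 32, where it called 14.1% of all genes in either direction and 6.84% lower. In 6 of the 32 genes, every mutant library lay below every control library in TMM-scaled CPM, which held for 12.9% of all genes. These 6 were Rpt6, Rpn10, Prosalpha1, Prosbeta2, Prosbeta4 and Rpn12. Non-overlap depended on the scaling between libraries: with counts divided by library totals alone, an alternative chosen after seeing the data, it held for 0 of the 32 and for 10.8% of all genes. Without control replicate 3, the median of the 31 genes was -0.03, with 18 of 31 below 0.

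In the alpha ring, the log2 fold changes of the 6 well-expressed genes in the mutant lay between -0.28 and -0.10. Prosalpha2, the most abundant alpha gene, was at 107, 111 and 122 CPM in the control libraries, 109, 97.4 and 111 for the mutant and 99.5, 105 and 88.3 for the rescue. Its log2 fold change in the mutant was -0.10 ± 0.12 (SE), adjusted p = 0.624 by edgeR, and -0.03 without control replicate 3; mutant and control libraries overlapped. Prosalpha3, another subunit of the ring, was at 87.7, 93.4 and 102 CPM in the control libraries, 94.9, 79.4 and 90.9 for the mutant and 80.5, 87.4 and 70.3 for the rescue, with a log2 fold change of -0.10 ± 0.12 (SE), adjusted p = 0.679 by edgeR, and -0.02 without control replicate 3 or without mutant replicate 2. Prosalpha5 had the lowest fold change of the 6 well-expressed alpha genes and was at 66.2, 64.8 and 89.4 CPM in the control libraries, 68.1, 54.3 and 59.4 for the mutant and 55.6, 60.7 and 47.7 for the rescue. Its mutant and control libraries overlapped, since mutant replicate 1 lay above 2 of the control libraries, and control replicate 3 stood well above the other 2. Its log2 fold change was -0.28 ± 0.16 (SE), adjusted p = 0.312 by edgeR, and -0.10 without control replicate 3.

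Among the beta genes, Prosbeta5 was at 141, 133 and 149 CPM in the control libraries, 121, 118 and 136 for the mutant and 121, 134 and 110.5 for the rescue. The log2 fold change of this protease in the mutant was -0.17 ± 0.12 (SE), adjusted p = 0.400 by edgeR, with overlapping libraries. Prosbeta4, a beta subunit without protease activity, was at 68.2, 70.5 and 76.0 CPM in the control libraries, 59.4, 58.5 and 62.7 for the mutant and 59.1, 61.0 and 50.8 for the rescue. All 3 mutant libraries of Prosbeta4 lay below all 3 control libraries, and its log2 fold change of -0.25 ± 0.10 (SE), adjusted p = 0.182 by edgeR did not pass. Prosbeta6, in which dominant temperature-sensitive alleles are known in flies, was at 32.9, 34.9 and 41.7 CPM in the control libraries, 34.0, 30.9 and 37.6 for the mutant and 32.6, 35.0 and 31.3 for the rescue, with overlapping libraries and a log2 fold change of -0.10 ± 0.12 (SE), adjusted p = 0.668 by edgeR, which turned to 0.02 without control replicate 3.

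In the base, the Rpt gene with the highest CPM in control was Rpt1, at 136, 146 and 158 CPM in the control libraries, 131, 131 and 136 for the mutant and 133, 138 and 113 for the rescue. Its log2 fold change in the mutant was -0.14 ± 0.12 (SE), adjusted p = 0.493 by edgeR, and -0.07 without control replicate 3; Rpt1 overlaps CG17985 on the same strand, so part of its reads are uncertain. Rpt4 was at 86.0, 98.7 and 123 CPM in the control libraries, 85.8, 83.8 and 92.0 for the mutant and 85.0, 90.1 and 73.6 for the rescue, where control replicate 3 again stood above the rest, with a log2 fold change of -0.23 ± 0.15 (SE), adjusted p = 0.363 by edgeR, and -0.07 without that library. Rpt5, whose tail docks on the alpha ring and helps to open the gate, was at 115, 108 and 138 CPM in the control libraries, 117, 122 and 127 for the mutant and 124, 132 and 111 for the rescue, with a log2 fold change of 0.02 ± 0.13 (SE), adjusted p = 0.942 by edgeR, and 0.14 without control replicate 3.

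The 4 non-ATPase genes of the base had log2 fold changes between -0.16 and -0.0024 in the mutant. Rpn1, a scaffold that binds the shuttle proteins carrying ubiquitylated substrates, was at 164, 185 and 210.0 CPM in the control libraries, 173, 171 and 185 for the mutant and 169, 185 and 158 for the rescue, with a log2 fold change of -0.08 ± 0.13 (SE), adjusted p = 0.740 in the mutant by edgeR, which turned to 0.03 without control replicate 3. The ubiquitin receptor Rpn10 was at 122, 126 and 139 CPM in the control libraries, 114, 117 and 115 for the mutant and 111, 126 and 107 for the rescue. Its mutant libraries lay close together and below all control libraries, with a log2 fold change of -0.16 ± 0.11 (SE), adjusted p = 0.408 by edgeR, and -0.09 without control replicate 3. The other ubiquitin receptor, Rpn13, was at 85.3, 96.99 and 95.7 CPM in the control libraries, 94.2, 88.0 and 95.2 for the mutant and 85.3, 92.7 and 84.4 for the rescue, the one gene whose highest library was not control replicate 3, with a log2 fold change of -0.0024 ± 0.10 (SE), adjusted p = 0.992 by edgeR.

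In the lid, Rpn6, which clamps the lid and base to the core, was at 141, 145 and 167 CPM in the control libraries, 145, 166 and 165 for the mutant and 150.0, 160.3 and 149 for the rescue. It had the largest log2 fold change of the 31 genes in the mutant, 0.07 ± 0.12 (SE), adjusted p = 0.747 by edgeR, and 0.16 without control replicate 3, with overlapping libraries. Rpn12, a subunit known in yeast to join the lid late in its assembly, was at 37.3, 42.6 and 42.7 CPM in the control libraries, 33.7, 34.5 and 36.6 for the mutant and 33.0, 37.8 and 34.6 for the rescue. Its mutant libraries all lay below the control libraries, and the log2 fold change of -0.23 ± 0.10 (SE), adjusted p = 0.208 by edgeR did not pass. Rpn11, the deubiquitylase of the lid, stood in the mutant at 105 ± 8.43 CPM (SD, n = 3) beside 106 ± 10.8 in control.

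**Figure D3:**
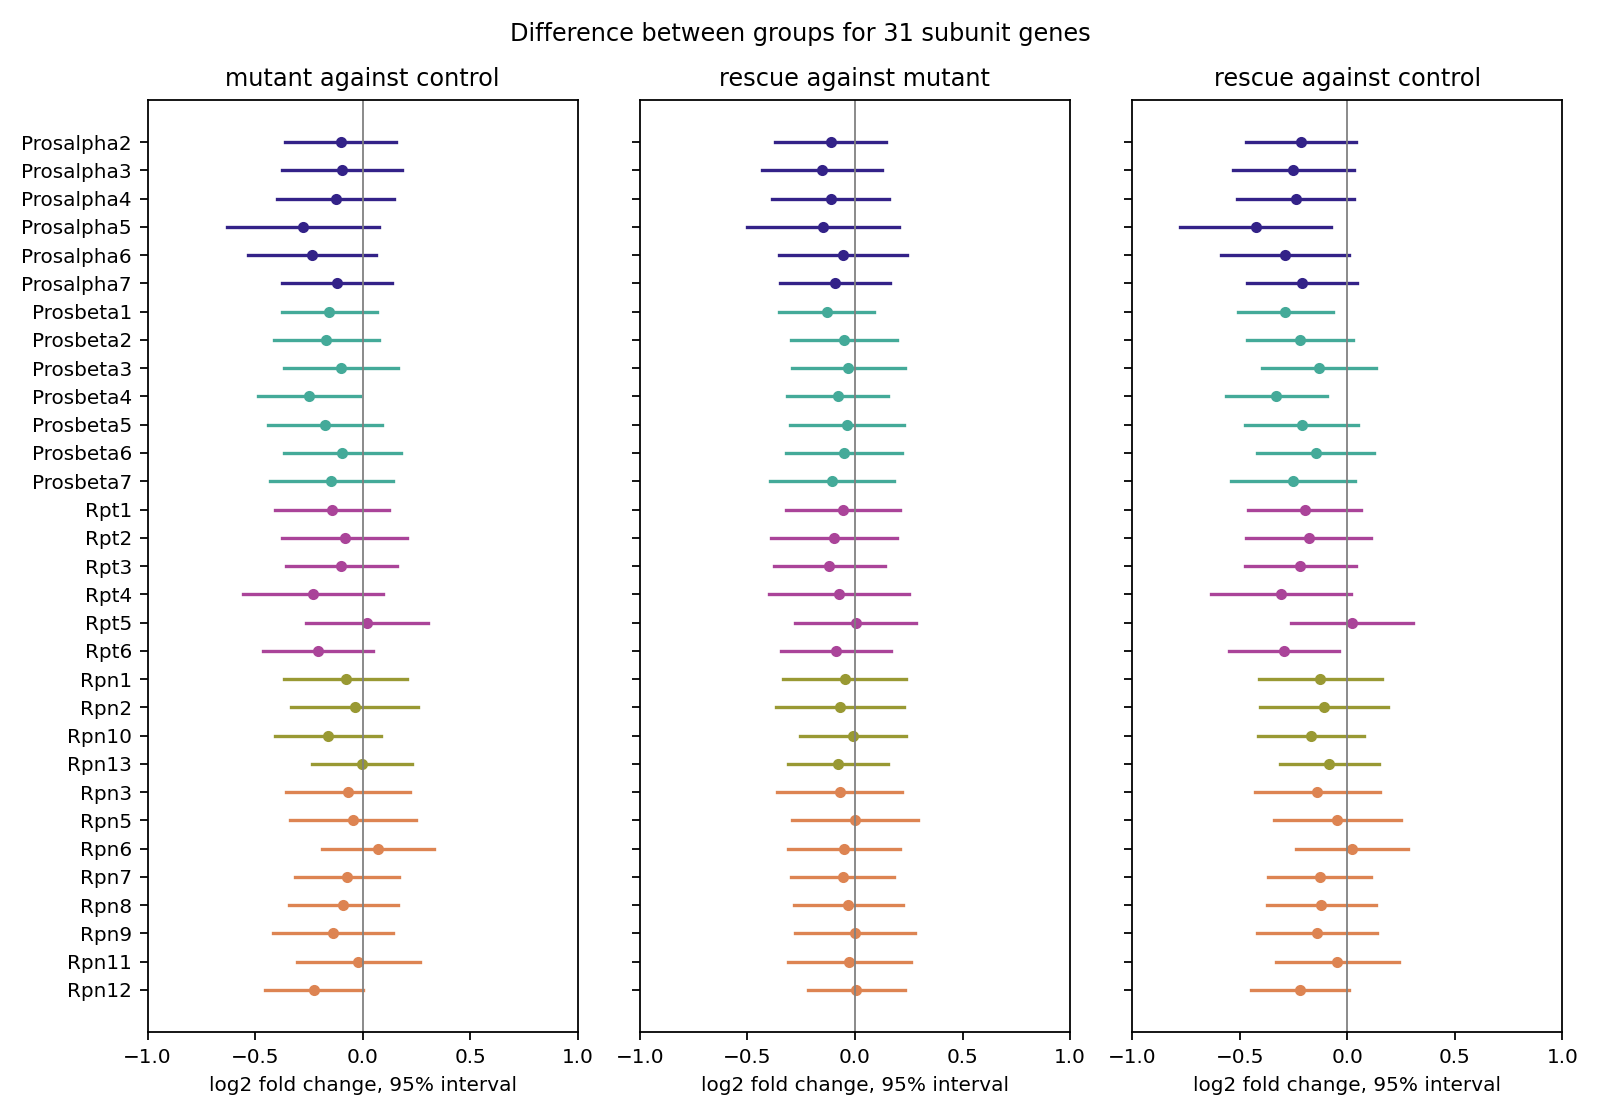
Log2 fold change of 31 standard subunit genes (points; bars, 95% interval; colours as for the level per length) in each of the 3 comparisons. Most points lie slightly left of 0, and in the rescue against the mutant all 31 intervals include 0.

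The second comparison asked whether the return of tra to esg-expressing cells moved the subunit genes away from the mutant level. Again no subunit gene passed the threshold, where 0.188% of all genes were called higher and 0.278% lower, and DESeq2 called none of the 32 where it called 1.24% of all genes. For 31 genes the median log2 fold change was -0.06, beside -0.0026 over all genes, with 28 of 31 below 0 and 95% intervals between -0.50 and 0.29. At an unadjusted p under 0.05, 1 of 32 was higher (Prosalpha1) and 0 were lower, where 2.90% of all genes were higher and 2.16% lower. No gene had all rescue libraries below all mutant libraries, where 6.84% of all genes did. Without rescue replicate 3, the median of the 31 genes was -0.0036, with 16 of 31 below 0.

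The third comparison set the rescue against control, sharing libraries with the other comparisons. No subunit gene passed the threshold with edgeR, where 4.79% of all genes were called higher and 4.65% lower. DESeq2 called 2 of the 32 lower, Prosbeta1 and Prosbeta4, and none higher, where it called 18.7% of all genes in either direction and 9.70% lower. The median log2 fold change of 31 genes was -0.20, beside -0.03 over all genes, with 29 of 31 below 0 and 95% intervals between -0.78 and 0.31. At an unadjusted p under 0.05, 4 of 32 were lower and 0 higher, where 14.7% of all genes were lower and 12.6% higher. The median was -0.10 without control replicate 3 and -0.12 without rescue replicate 3, with 27 of 31 below 0 in both.

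The 4 genes with an unadjusted p under 0.05 were Prosalpha5, Prosbeta1, Prosbeta4 and Rpt6, named after their values were seen. Prosbeta1, the caspase-like protease, was at 62.8, 66.9 and 67.9 CPM in the control libraries, 64.0, 55.5 and 57.8 for the mutant and 53.7, 56.8 and 51.3 for the rescue. All its rescue libraries lay below all control libraries, with a log2 fold change of -0.29 ± 0.10 (SE), adjusted p = 0.0958 by edgeR and an adjusted p of 0.0483 by DESeq2. Prosbeta4 lay below control in all rescue libraries as well, with a log2 fold change of -0.33 ± 0.11 (SE), adjusted p = 0.0778 by edgeR and an adjusted p of 0.0348 by DESeq2. The ATPase gene Rpt6 was at 131, 129.8 and 155 CPM in the control libraries, 125, 119 and 116 for the mutant and 107, 120.3 and 111 for the rescue, with no overlap between rescue and control and a log2 fold change of -0.30 ± 0.11 (SE), adjusted p = 0.131 by edgeR. For Prosalpha5 the log2 fold change was -0.43 ± 0.16 (SE), adjusted p = 0.117 by edgeR, also without overlap. Without control replicate 3 these log2 fold changes were -0.18 for Rpt6 and -0.24 for Prosalpha5, with adjusted p-values of 0.337 and 0.323 by edgeR.

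Read apart, the core genes lay further below control than the regulatory genes. In the mutant, the median log2 fold change against control was -0.15 for 13 core genes without Prosalpha1 and -0.08 for 18 regulatory genes. In the rescue it was -0.24 and -0.13, and against the mutant -0.09 and -0.05. All 13 core genes were below 0 in each of the 3 comparisons, as were 16 of 18, 15 of 18 and 16 of 18 regulatory genes for mutant against control, rescue against mutant and rescue against control. Within a single fit, the change of the rescue against control is nearly the sum of the other changes. Its sign for the core genes therefore followed from theirs. Without control replicate 3, the medians in the mutant against control were -0.06 for the core and 0.02 for the regulatory genes, and those in the rescue against control were -0.16 and -0.03; 11 of 13 core and 7 of 18 regulatory genes were then below 0 in the mutant against control. Between rescue and mutant the count below 0 fell to 9 of 13 core genes without rescue replicate 3, with medians of -0.02 for the core and 0.01 for the regulatory genes, and to 9 of 13 without mutant replicate 3, with medians of -0.04 and -0.0077.

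In TMM-scaled CPM, every rescue library lay below every control library for 10 of the 32 genes, where 15.8% of all genes did so. Of these 10, 9 were core genes (Prosalpha2 to Prosalpha7, Prosbeta1, Prosbeta2 and Prosbeta4) and 1 was regulatory (Rpt6). With library totals alone, the count was 2 of the 32, namely Prosbeta1 and Rpn12, where 11.7% of all genes did so. Whether core and regulatory genes differed in their response was not tested, because the genes of a particle are not replicates.

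The summed level of the 14 core genes was 1115, 1152 and 1299 CPM for control, 1083, 995 and 1119 for the mutant and 1015, 1088 and 906 for the rescue. In this scaling the rescue libraries all lay below the control libraries, and the mutant libraries overlapped both. As a share of all gene counts, with no TMM scaling, the core sum was 0.114%, 0.103% and 0.140% for control, 0.105%, 0.0961% and 0.118% for the mutant and 0.109%, 0.107% and 0.0884% for the rescue, and rescue and control overlapped. The summed level of the 18 regulatory genes was 2008, 2101 and 2434 CPM for control, 2023, 2028 and 2138 for the mutant and 2000.2, 2142 and 1836 for the rescue, and all 3 groups overlapped. In means, the core sum was 1189 ± 97.1 CPM (SD, n = 3) in control, 1066 ± 63.7 in the mutant and 1003 ± 91.6 in the rescue, and the regulatory sum was 2181 ± 224, 2063 ± 64.9 and 1993 ± 153.

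The ratio of core to regulatory counts within a library does not depend on the scaling between libraries. It was 0.555, 0.549 and 0.534 for control, 0.535, 0.491 and 0.524 for the mutant and 0.507, 0.508 and 0.493 for the rescue. Every rescue library lay below every control library, and the mutant libraries overlapped both groups. Control replicate 3, the highest library for both sums, had the lowest ratio of its group, so the order of rescue and control did not rest on it. The ratio itself was not put to a test. Core genes are mostly shorter, at 815 to 1215 exon bases beside 995 to 3412 for the regulatory genes. The part of gene length in the ratio was not tested.

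**Figure D4:**
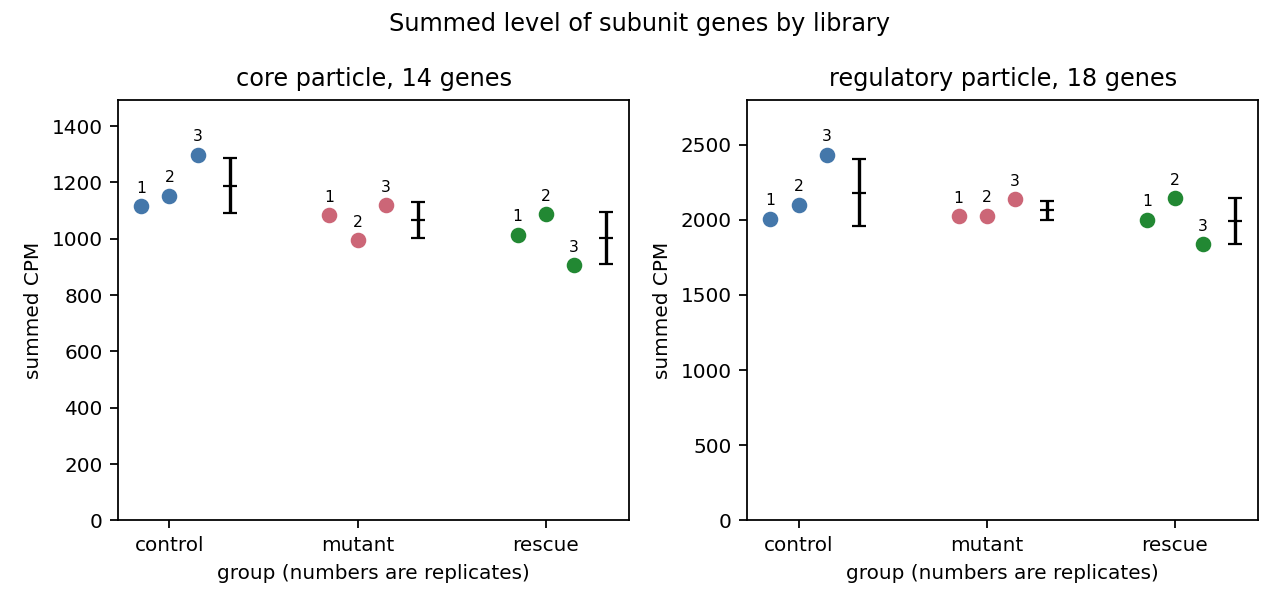
Summed CPM of the 14 core genes and the 18 regulatory genes by group (points, libraries with their replicate number; black bars, mean ± SD of 3 libraries). Core sums in the rescue, at 906 to 1088, lie below those in control, at 1115 to 1299, while regulatory sums overlap between all groups; as shares of all gene counts without TMM scaling, core sums of rescue and control overlap too.

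Prosalpha1 was the one standard subunit gene with almost no reads. It had 16, 14 and 16 reads in the control libraries, 8, 12 and 14 for the mutant and 42, 17 and 21 for the rescue, while the lowest count of any other alpha gene was 4117. All rescue libraries lay above all mutant and control libraries. The log2 fold change of the rescue against the mutant was 1.24 ± 0.40 (SE), adjusted p = 0.567 by edgeR, and that of the mutant against control was -0.42 ± 0.41 (SE), adjusted p = 0.562, with no call at either. A copy, Prosalpha1R, is its neighbour on chromosome 2R on the same strand, with 0 genes between them and 1734 bases apart in the current annotation. The 2 genes have exon lengths of 969 and 952 bases, each in 4 exon blocks. Prosalpha1R had no reads but for 2 in rescue replicate 3. Reads that aligned to more than 1 place were counted apart from all genes in the deposited tables, at 14.6% to 22.9% of a library's total with the uncounted alignments included, and their part in the low counts of this pair was not tested. The level of Prosalpha1 is therefore uncertain.

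Of the other 14 variant copies, 3 passed the filter on low counts, all of them relatives of the ATPases. Rpt4R would not have passed it without the control libraries, where it was highest, although mutant replicate 3 and rescue replicate 1 had 10 and 13 reads. Its lower level in the other groups is thus partly tied to this selection. Rpt3R had 71, 26 and 64 reads in the control libraries, 18, 19 and 28 for the mutant and 35, 17 and 16 for the rescue. In CPM all mutant libraries lay below all control libraries, by a narrow margin at control replicate 2, and the log2 fold change of the mutant against control was -1.28 ± 0.43 (SE), adjusted p = 0.107 by edgeR. Rpt4R had 17, 15 and 76 reads in the control libraries, 3, 1 and 10 for the mutant and 13, 4 and 3 for the rescue, with all mutant libraries below all control libraries. Its log2 fold change was -2.85 ± 0.84 (SE), adjusted p = 0.0749 by edgeR and did not pass, while DESeq2 gave an adjusted p of 0.0200. Rpt6R had 19, 12 and 60 reads in the control libraries, 16, 4 and 14 for the mutant and 20, 12 and 8 for the rescue, with overlap and a log2 fold change of -1.34 ± 0.64 (SE), adjusted p = 0.238 by edgeR. For Rpt4R and Rpt6R control replicate 3, with 76 and 60 reads, was far above the other control libraries. Without that library, their log2 fold changes in the mutant were -1.82 and -0.51, with adjusted p-values of 0.226 and 0.711 by edgeR, and in the rescue against control -1.29 and -0.22, with 0.361 and 0.874.

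In the rescue against control the log2 fold changes of these copies were -1.19 for Rpt3R, -2.33 for Rpt4R and -1.07 for Rpt6R, with adjusted p-values of 0.110, 0.0993 and 0.311 by edgeR. Against the mutant they were 0.09, 0.52 and 0.27, each with an adjusted p of 0.999 by edgeR. Without control replicate 2, edgeR called Rpt3R lower in the mutant (adjusted p = 0.0498) and in the rescue (adjusted p = 0.0477). Per length, the 3 copies stood in control at 0.364, 0.225 and 0.199 CPM per 1000 bases, against 69.9, 70.0 and 98.7 for Rpt3, Rpt4 and Rpt6.

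The remaining 11 copies were at or near 0 and were not tested. Rpn13R had 1, 2 and 2 reads in the control libraries, 2, 0 and 3 for the mutant and 14, 3 and 8 for the rescue, with all rescue libraries at or above the highest of the others. Prosalpha3T had 1, 0 and 3 reads in the control libraries, 5, 9 and 3 for the mutant and 4, 3 and 6 for the rescue, with overlapping groups. Prosbeta2R2 had at most 3 reads in a library and Prosbeta2R1 at most 2. Prosalpha4T2 had 3 reads in rescue replicate 1 and 0 elsewhere, Prosbeta4R1 had 1 in mutant replicate 2, and Prosbeta4R2 had 1 in control replicate 2. Prosalpha6T, Prosbeta5R1, Prosbeta5R2 and Rpn12R had 0 reads in all 9 libraries, which allows up to 0.0354 CPM in the shallowest one. Of 8 markers of the testis, 4 to 7 were at 0 in a library. Their summed level was 0.170 to 0.351 CPM in control, 0.402 to 0.871 in the mutant and 0.420 to 0.660 in the rescue, so every mutant and rescue library lay above control. The sum was carried mainly by fzo, a gene of mitochondrial fusion in developing sperm, with 19, 33 and 19 reads in the control libraries, 50, 83 and 42 for the mutant and 55, 29 and 52 for the rescue, while the other 7 markers were at or near 0. Taken alone, fzo overlapped between rescue and control, at 0.348 CPM in rescue replicate 2 and 0.351 in control replicate 2. For fzo the log2 fold change in the mutant was 1.31 ± 0.43 (SE), adjusted p = 0.102 by edgeR and the adjusted p 0.0412 by DESeq2. Its part in the counts of the variant copies was not tested.

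**Figure D5:**
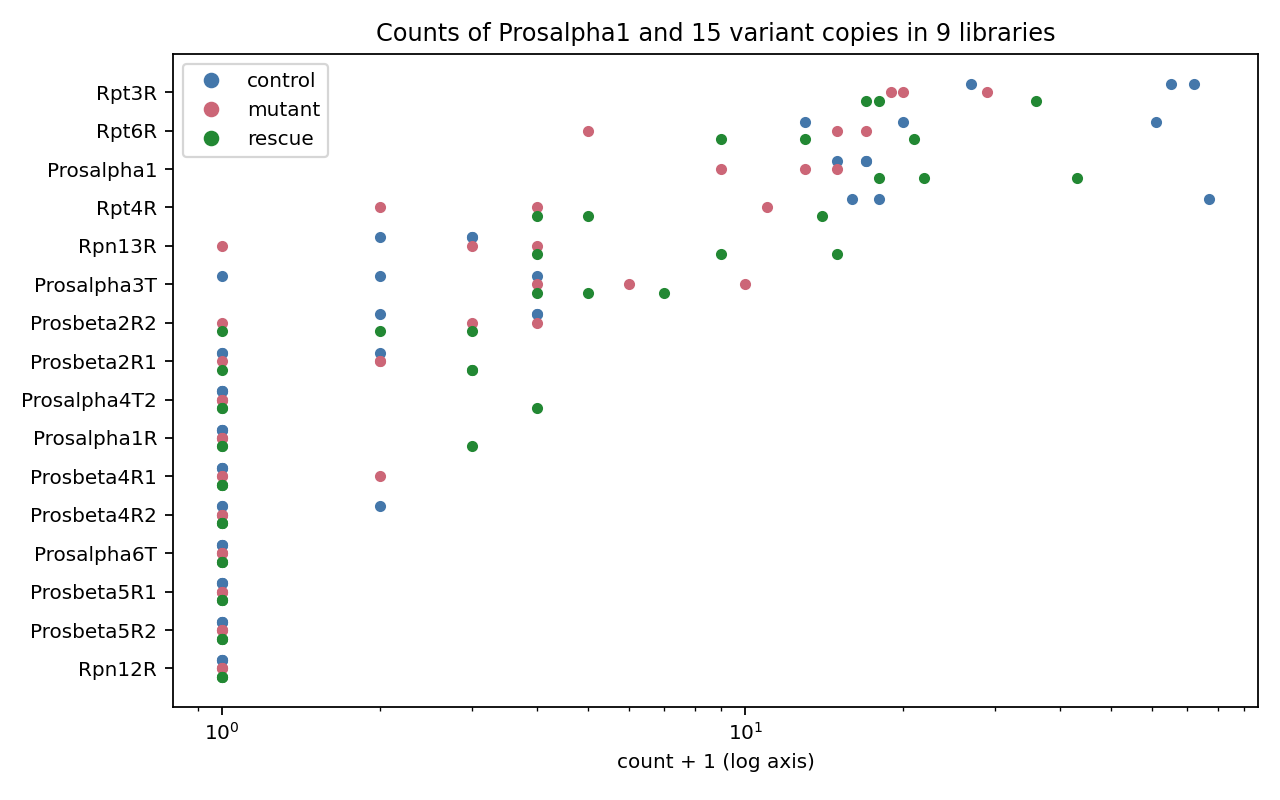
Reads of Prosalpha1 and the 15 variant copies in each library, as count + 1 on a log axis (points, libraries; colours, groups; a point at 1 stands for 0 reads). Rpt3R, Rpt4R and Rpt6R reach 71, 76 and 60 reads in control, Prosalpha1 reaches 42 in the rescue, and 4 copies have no read in any library.

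Further genes were read from 7 lists, called the partner lists here. They hold genes that work with the proteasome, and also eIF3 and the COP9 signalosome, complexes whose scaffold resembles that of the lid. Of the listed genes, 57 were in the count tables and passed the filter. In the mutant against control 2 of the 57 passed the threshold, both lower, and in the rescue against control 3 passed, all lower; none passed in the rescue against the mutant. The background for these counts is the same as for the subunit genes, 3.01%, 4.65% and 0.278% of all genes called lower. DESeq2 called 3 of the 57 lower in the mutant and 10 lower in the rescue against control, where it called 6.84% and 9.70% of all genes lower. The 13 genes of eIF3, a translation initiation complex, held 1 of the 2 and 2 of the 3 edgeR calls. They also held 1 of the 3 and 7 of the 10 DESeq2 calls. No gene of the 57 was called higher in any comparison by either tool.

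Among the 10 tested partners of the proteasome (assembly factors, activators, shuttle proteins and deubiquitylases), REG was the one gene called. REG encodes the activator that can cap the core particle in place of the regulatory particle and opens it without ATP. It was at 87.9, 66.8 and 79.9 CPM in the control libraries, 50.3, 56.7 and 56.9 for the mutant and 56.4, 53.0 and 56.0 for the rescue. All mutant and all rescue libraries lay below all control libraries, with a log2 fold change of -0.52 ± 0.12 (SE), adjusted p = 0.0326 for the mutant and -0.50 ± 0.12 (SE), adjusted p = 0.0304 for the rescue by edgeR. The call in the mutant was kept without control replicate 2 and ended without any 1 of the other 8 libraries (adjusted p of up to 0.115 by edgeR). The call in the rescue was kept without control replicate 2, mutant replicate 1 or mutant replicate 2 and ended without any 1 of the other 6 (up to 0.122). With library totals in place of TMM scaling neither passed (adjusted p = 0.0940 in the mutant and 0.0945 in the rescue by edgeR). The median log2 fold change of the 10 partners in the mutant against control was -0.12, with 7 below 0.

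Another list was eIF3, a translation initiation complex whose scaffold resembles that of the proteasome lid. All 13 of its genes had log2 fold changes below 0 in the mutant, with a median of -0.23, and in the rescue against control, with a median of -0.47. DESeq2 called 1 of the 13 lower in the mutant and 7 in the rescue against control, where it called 6.84% and 9.70% of all genes lower. In TMM-scaled CPM, 1 lay below control without overlap in the mutant and 12 in the rescue, beside 12.9% and 15.8% of all genes. The genes of a complex are not replicates. In the mutant 1 of the 13 passed: eIF3j, a loosely bound subunit, was at 147, 128 and 152 CPM in the control libraries, 90.3, 103 and 96.6 for the mutant and 105, 113 and 114 for the rescue, with a log2 fold change of -0.56 ± 0.11 (SE), adjusted p = 0.0182 by edgeR and no overlap with control. In the rescue against control 2 passed. The first, eIF3d1, a subunit that can bind the cap of mRNAs in human cells, was at 208, 198 and 184 CPM in the control libraries, 189.8, 143 and 156 for the mutant and 146, 136 and 141 for the rescue, with a log2 fold change of -0.48 ± 0.13 (SE), adjusted p = 0.0464 by edgeR. The second, eIF3e, a subunit of the scaffold, was at 211, 188 and 169.6 CPM in the control libraries, 177, 141 and 144 for the mutant and 134, 120.3 and 140.5 for the rescue, with a log2 fold change of -0.53 ± 0.14 (SE), adjusted p = 0.0431 by edgeR. Both lay below control in all rescue libraries.

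These calls also depended on single libraries. Leaving out 1 library ended the call of eIF3j without mutant replicate 1 or 3 (adjusted p = 0.0736 and 0.0776) by edgeR. The call of eIF3d1 was kept without control replicate 3, mutant replicate 1 or mutant replicate 2 and ended without any 1 of the other 6 libraries (up to 0.157), and that of eIF3e was kept without control replicate 3 or mutant replicate 1 and ended without any 1 of the other 7 (up to 0.162). With library totals, neither eIF3d1 (adjusted p = 0.0811) nor eIF3e (0.0665) passed by edgeR, nor did they without a filter on low counts (0.0582 and 0.0502). The call of eIF3d1 also ended with the filter at 1 CPM (0.0501) and with the replicate block (0.0503). With only the 6 libraries of a comparison in the fit, neither these calls nor those of REG passed. The COP9 signalosome, which removes the ubiquitin-like protein Nedd8 and shares the same scaffold, had a median log2 fold change of -0.04 in the mutant and -0.10 in the rescue against control over 8 genes, and none passed. Its gene of largest change in the mutant was alien, at 78.0, 64.8 and 65.0 CPM in the control libraries, 79.0, 74.1 and 82.7 for the mutant and 85.0, 79.7 and 72.8 for the rescue, with a log2 fold change of 0.18 ± 0.12 (SE), adjusted p = 0.370 by edgeR.

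The genes upstream of the proteasome did not pass with edgeR and TMM scaling on all 9 libraries in any comparison. DESeq2 called 1 of the 4 ubiquitin genes lower in the mutant and 2 lower in the rescue against control. It called 6.84% and 9.70% of all genes lower in these comparisons. In control, mutant and rescue, the ubiquitin gene RpL40 had means of 1024, 824 and 703 CPM. Ubi-p5E (939, 1158 and 1013) and Ubi-p63E (216, 238 and 249) were higher on average in mutant and rescue than in control. The libraries of each overlapped between the groups. The 4 ubiquitin genes had a median log2 fold change of -0.09 in the mutant, with 2 of the 4 below 0. The largest change among them was that of RpS27A, which encodes ubiquitin fused to a ribosomal protein, at 1926, 1969 and 1517 CPM in the control libraries, 1321, 1399.9 and 1174 for the mutant and 1199.9, 1129 and 1304 for the rescue. All its mutant and rescue libraries lay below control, with log2 fold changes of -0.47 ± 0.16 (SE), adjusted p = 0.115 for the mutant and -0.58 ± 0.16 (SE), adjusted p = 0.0564 for the rescue by edgeR. In the rescue it passed with edgeR under library totals (adjusted p = 0.0363) and without control replicate 3 (adjusted p = 0.0269), and DESeq2 gave adjusted p-values of 0.0172 in the mutant and 0.00197 in the rescue. The 14 conjugating and ligating enzymes had a median of 0.05, and the one with the largest change was poe, a ubiquitin ligase, at 262, 284 and 270.3 CPM in the control libraries, 359.7, 319.7 and 284 for the mutant and 328, 271 and 313 for the rescue, with a log2 fold change of 0.24 ± 0.13 (SE), adjusted p = 0.314 in the mutant by edgeR, and 0.15 without mutant replicate 1.

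The gene of the p97 unfoldase itself was not analysed here. Its 4 cofactors, which serve an enzyme that pulls ubiquitylated proteins out of complexes and hands them to the proteasome, had a median of 0.06, and Plap, at 39.3, 34.2 and 50.1 CPM in the control libraries, 47.2, 36.0 and 46.99 for the mutant and 40.1, 41.0 and 32.8 for the rescue, had a log2 fold change of 0.08 ± 0.17 (SE), adjusted p = 0.821 in the mutant by edgeR. Cnc, the transcription factor that raises subunit gene expression in flies when proteasome activity falls, belongs to a list of 4 with its repressor Keap1, its partner maf-S and Pngl. Their median was 0.05 in the mutant and none passed. The gene cnc itself was at 495, 558 and 428 CPM in the control libraries, 498, 633 and 554 for the mutant and 612, 567 and 581 for the rescue, with log2 fold changes of 0.19 ± 0.15 (SE), adjusted p = 0.482 for the mutant (0.09 without mutant replicate 2 and 0.28 without control replicate 2) and 0.25 ± 0.15 (SE), adjusted p = 0.318 for the rescue against control by edgeR. Keap1 was at 38.0, 55.5 and 37.7 CPM in the control libraries, 34.1, 47.1 and 28.7 for the mutant and 36.4, 40.4 and 45.7 for the rescue, with a log2 fold change of -0.26 ± 0.21 (SE), adjusted p = 0.482 in the mutant by edgeR, which ranged from -0.48 without mutant replicate 2 to -0.05 without control replicate 2.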

How the data were processed

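Per the submitters' processing notes, reads were processed with TopHat2 2.0.11, HTSeq and genome build dm3, with the version and strand setting of HTSeq not given in the sources used here. Per the labels' protocols, 500 ng of RNA went into a stranded mRNA library, sequenced as pairs of 100-base reads. The series text and the sample labels name different sequencer models, the sample labels the same one for every library, so no model is given and no library is tied to a batch by it. The age and the temperature times are printed as the labels have them. The authors deposited raw counts, whole numbers for each gene in each library. Rows that name no gene stayed out of library sizes and tests: alignments that were not unique made up 14.6% to 22.9% of a table's total, ambiguous ones 0.822% to 1.09% and those on no gene 1.30% to 1.83%.

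Symbols came from the FlyBase names of the reference name table (15002 of 15682 identifiers matched). Exon lengths and overlaps came from the Ensembl BDGP6 annotation, another build than dm3, so no coordinates are given. Of the 32 standard genes, 15 overlap a gene on the other strand and 1 on the same strand. Sequences of promoters and proteins were not used here.

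Genes passed a filter at 10 counts in enough libraries and 15 in all (filterByExpr of edgeR 4.0.16, R 4.3.3), which left 10088 genes and 35 members. One edgeR quasi-likelihood fit with TMM scaling covered all 9 libraries, with a group term, and p-values were adjusted over all genes by Benjamini-Hochberg. SE is the absolute log2 fold change over the square root of F. DESeq2 1.42.0, other scalings and filters, the 6 libraries compared alone, a replicate block and leaving out each library were the alternatives. The code was tested on simulated data. Replicates differed by far more than sampling noise (chi-square per degree of freedom 121.5 or more).

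Same-numbered libraries of control and mutant deviated together (r = 0.218, 0.221 and 0.177 across genes). Those of control and rescue did so less evenly (0.163, 0.256 and 0.032), and those of mutant and rescue did not throughout (0.113, 0.096 and -0.379). Between libraries of different number, r ranged from -0.283 to 0.039 for control and mutant and from -0.26 to 0.077 for control and rescue. For mutant and rescue it ranged from -0.358 to 0.305. Deviations were taken from the mean of a group, so high values for some pairs go with low ones for others. The labels state no block, so the main fit was unpaired. Whether the replicate numbers mark pairs was not tested.

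The members and lists were chosen with earlier results of these data known. Named by rule are, in each subgroup, the gene with the highest CPM in control and those with the largest and smallest log2 fold change in the mutant, every variant copy, and in each partner list the genes that passed and the one of largest change. Prosalpha5, Prosbeta1, Rpt6, Rpn11, cnc and the rescue value of RpS27A were added after their values were seen. RpL40, Ubi-p5E and Ubi-p63E, the rest of the ubiquitin genes, also fall outside this rule.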

Additional observations from a re-analysis of the deposited data

How the results depend on the processing

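The counts of subunit genes called higher were 0 in every comparison under each alternative run. Those called lower were 0 in the rescue against the mutant throughout. In the mutant against control the count went from 0 to 1 with DESeq2 (Rpt4R) and ranged from 0 to 1 when single libraries were left out. In the rescue against control it went from 0 to 2 with DESeq2 (Prosbeta1 and Prosbeta4) and ranged from 0 to 1 when single libraries were left out. The replicate block gave 0 subunit genes in either direction in every comparison; of the partner calls it ended that of eIF3d1 (adjusted p = 0.0503 by edgeR) and no other.

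For the partner lists, the 2 genes called lower in the mutant against control became 1 with library totals and 0 with the 6 libraries alone, and 0 to 2 when single libraries were left out. The 3 called lower in the rescue against control became 1 with library totals, 1 without a filter, 10 with DESeq2 and 0 with the 6 libraries alone, and 0 to 4 when single libraries were left out. The causes were not tested.

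Among the genes followed singly through the alternatives, the fold changes that turned sign were close to 0 in the main fit. Other subunit genes turned sign as well without control replicate 3, as the counts below 0 given above show. That of Rpn13 in the mutant against control was 0.0013 with RLE size factors, 0.0089 with the filter at 1 CPM and 0.0013 with DESeq2. When single libraries were left out, the log2 fold change in the mutant against control ranged from -0.0594 to 0.0325 for Rpn13, from -0.1647 to 0.0273 for Rpn1, from -0.0525 to 0.141 for Rpt5, from -0.1651 to 0.0237 for Prosbeta6 and from -0.0429 to 0.2512 for Plap. In the rescue against control it ranged from -0.026 to 0.1188 for Rpn6 and from -0.0496 to 0.1527 for Rpt5. The number of standard genes lower without overlap went from 6 to 0 in the mutant against control and from 10 to 2 in the rescue against control with library totals alone, a choice added after seeing the data. The variant copies and Prosalpha1 rest on few reads, at most 76 in a library.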
